A study of Mus musculus with 7 samples.

Results

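Endothelin, nitric oxide and natriuretic peptide genes were followed in injured mouse kidneys through 9 genes chosen by symbol: Edn1, Ece1, Ednra, Ednrb, Nos1, Nos3, Pde5a, Npr1 and Npr3. Each matched a single row of the deposited count table, so the set holds 9 of its 42256 rows. Bulk RNA-seq was done on kidneys of 4 mice labelled CDH11-/- and 3 mice labelled CDH11+/+, all adult males of a mixed 129S1/Sv x C57BL/6 background. CDH11 is the gene of cadherin-11, an adhesion molecule of mesenchymal cells, and -/- and +/+ denote knockout and wild type. Mice of both genotypes had lost a kidney by uninephrectomy and received angiotensin II from an implanted pump at 800 ng/kg/min until tissue was taken at 4 weeks. No uninjured, sham-operated or vehicle-infused kidney is among these libraries, so a difference that preceded injury cannot be told apart from a different response to it. How the knockout allele was made is not given in the labels.

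These genes belong to the opposing vascular signals of the kidney. Endothelin-1 is cut from a precursor by endothelin-converting enzyme and acts through receptors that constrict vessels (type A, and type B on smooth muscle) or release nitric oxide and clear endothelin (type B on endothelium). Nitric oxide from its synthases and natriuretic peptides at their guanylyl cyclase receptors both raise cyclic GMP, which relaxes smooth muscle and favours sodium excretion, and phosphodiesterases end the signal.

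Total counts were 72087906 to 84786351 in the CDH11-/- libraries and 72117499 to 81812964 in the CDH11+/+ libraries. Values per library are CPM, the usual depth-normalised read count, on library sizes scaled by TMM, an edgeR method. The targeted gene Cdh11 was not lower in the CDH11-/- libraries, at 9.56 to 11.6 CPM, against 4.52 to 10.8 CPM in the CDH11+/+ libraries. The groups overlapped and the test was not passed (log2 fold change 0.56, SE 0.25, edgeR adjusted p = 0.14). Exchanged labels and an allele that leaves transcript cannot be told apart from gene counts. Every direction below is therefore between the library labelled CDH11-/- and the library labelled CDH11+/+, written as CDH11-/- and CDH11+/+. Mitochondrial ribosomal RNA took 10.7% to 13.5% of the counts in CDH11-/- and 13.5% to 18.2% in CDH11+/+. CDH11+/+ replicate 3 stood apart in 4 Y-linked genes, chosen after their values were seen (64.7 CPM in sum, against 110.8 to 144.9 CPM in the other 6 libraries). Markers of kidney epithelium (Lrp2, Umod, Aqp2) were present in every library, Adipoq of fat and Th of sympathetic nerve were at 0 in all, and 5 adrenal markers summed to 1.09 to 1.87 CPM in CDH11-/- and 1.29 to 1.59 CPM in CDH11+/+.

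Of the 9 genes, 4 were lower in CDH11-/- kidneys and 0 were higher. The lower ones were the endothelin-1 gene Edn1, the endothelial nitric oxide synthase gene Nos3, and the natriuretic peptide receptor genes Npr1 and Npr3. All 9 passed the filter on low counts. Among all 17964 genes tested, 12.9% were called lower and 16.8% higher at an edgeR adjusted p under 0.05, 29.7% in all. The median log2 fold change of the 9 genes was -0.43, against -0.01 over all tested genes, and 7 of the 9 had a value below 0. At an adjusted p under 0.01, 2 of the 9 were called lower. The same 4 genes were those whose 2 groups of libraries did not overlap, with every CDH11-/- value below every CDH11+/+ value, which held for 16.6% of all tested genes. The opposite separation held for 0 of the 9 and for 21.9% of all tested genes, so that 38.5% of all genes were apart in either direction. CPM is a share of the scaled library. In bulk tissue, fewer cells of a type, less RNA per cell and more RNA from other cells cannot be told apart.

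**Figure D1:**
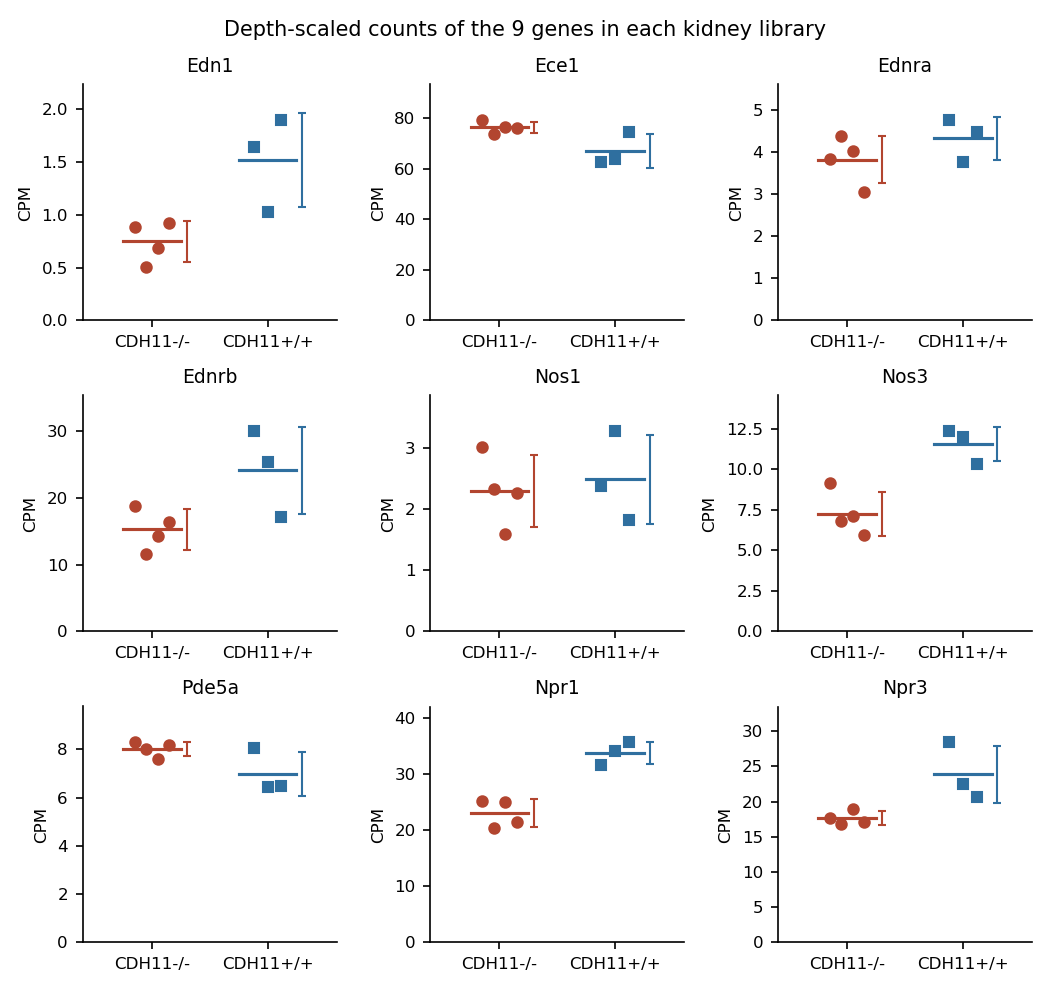
Each panel shows 1 gene in CPM on an axis that starts at 0, with a circle for each of 4 CDH11-/- libraries on the left and a square for each of 3 CDH11+/+ libraries on the right. Horizontal bars are group means and the offset error bars are ± SD. The groups separate completely for Edn1, Nos3, Npr1 and Npr3 and overlap for the other 5 genes.

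Promoter sequences of 3 of the 4 genes that were lower are shown, because these genes differed in the same direction and the sequences show how unlike the stretches before their starts are. Each is the 250 bases before a start annotated by RefSeq on GRCm38.p6, 5′ to 3′ on the strand of the gene. RefSeq promoter entries were matched for 8 of the 9 genes by symbol, and Nos3 is named only. Capitals mark matches to the motifs searched.
Edn1, chr13:42301226-42301475, plus strand: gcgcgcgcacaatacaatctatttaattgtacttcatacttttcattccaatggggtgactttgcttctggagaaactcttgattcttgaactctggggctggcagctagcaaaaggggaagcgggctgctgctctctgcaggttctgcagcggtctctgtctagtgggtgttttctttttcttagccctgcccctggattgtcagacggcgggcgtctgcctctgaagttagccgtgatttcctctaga
Npr1, chr3:90465867-90466116, minus strand: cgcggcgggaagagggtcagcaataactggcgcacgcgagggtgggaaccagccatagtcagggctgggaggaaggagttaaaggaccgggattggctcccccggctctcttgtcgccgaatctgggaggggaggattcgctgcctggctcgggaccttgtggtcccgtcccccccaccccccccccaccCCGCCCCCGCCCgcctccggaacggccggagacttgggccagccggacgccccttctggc
Npr3, chr15:11907372-11907621, minus strand: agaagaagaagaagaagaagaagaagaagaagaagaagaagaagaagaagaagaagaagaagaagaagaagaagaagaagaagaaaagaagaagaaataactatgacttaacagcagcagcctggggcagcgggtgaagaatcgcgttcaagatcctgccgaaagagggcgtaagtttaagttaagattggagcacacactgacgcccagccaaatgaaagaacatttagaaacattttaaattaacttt

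The motifs searched on both strands were the GC box (GGGCGG), the TATA box (TATAAA), the GATA motif (AGATAA) and the AP-1 motif (TGANTCA). Npr1 held 2 GC boxes, starting 60 and 54 bases before the start, side by side and without overlap. The Edn1 and Npr3 windows held none of the 4 motifs, but sequence outside these windows was not searched and may hold them. Over 32851 promoter entries of the same length, 32.7% held the GC box, 12.4% the TATA box, 9.99% the GATA motif and 6.75% the AP-1 motif. The GC content was 50.4% for Edn1, 70.4% for Npr1 and 38.8% for Npr3, against a median of 52.4% over all entries, a 10th percentile of 38.8% and a 90th percentile of 69.2%. The Npr3 window opened with a long run of the AGA triplet repeat.

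Edn1 encodes preproendothelin-1, the precursor of the peptide ligand. Edn1 (ENSMUSG00000021367, chromosome 13, 42301476 to 42307990, plus strand, positions of all genes on GRCm38 from GENCODE M21) had 75, 36, 59 and 74 counts in CDH11-/- replicates 1 to 4, against 116, 77 and 164 counts in CDH11+/+ replicates 1 to 3. These counts were 0.886, 0.503, 0.682 and 0.927 CPM in CDH11-/- and 1.64, 1.03 and 1.895 CPM in CDH11+/+. The CDH11-/- libraries all lay below the CDH11+/+ libraries, although CDH11-/- replicate 4 and CDH11+/+ replicate 2 were separated by only a narrow gap. Edn1 was 2.03-fold lower (log2 fold change -1.02, SE 0.28, adjusted p = 0.0233, edgeR), with a 95% confidence interval of the log2 fold change from -1.65 to -0.39. The call was lost without CDH11-/- replicate 2 (adjusted p = 0.0511, edgeR), CDH11-/- replicate 3 (0.0630), CDH11+/+ replicate 1 (0.0756) or CDH11+/+ replicate 3 (0.0697).

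Ece1, the converting enzyme that releases active endothelin-1, was abundant and did not pass the test. Ece1 (ENSMUSG00000057530, chromosome 4, 137862237 to 137965229, plus strand) had 79.0, 73.7, 76.3 and 76.0 CPM in CDH11-/- replicates 1 to 4, against 62.4, 63.6 and 74.6 CPM in CDH11+/+ replicates 1 to 3. CDH11+/+ replicate 3 reached the CDH11-/- range, and the other 2 CDH11+/+ libraries lay below it. The log2 fold change was 0.19 (SE 0.07, 95% confidence interval 0.03 to 0.35, adjusted p = 0.0799, edgeR). Without CDH11+/+ replicate 3 it was 0.27 and passed the test as higher (adjusted p = 0.0106, edgeR), and with the deposited normalized values it was 0.03.

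Both receptor genes had lower means in CDH11-/-, and neither passed the test. Ednrb, the type B receptor found on endothelium and collecting duct (ENSMUSG00000022122, chromosome 14, 103814625 to 103844402, minus strand), had 18.7, 11.6, 14.3 and 16.4 CPM in CDH11-/- replicates 1 to 4, against 29.9, 25.3 and 17.1 CPM in CDH11+/+ replicates 1 to 3. CDH11+/+ replicate 3 fell within the CDH11-/- range and was the library that made the groups overlap. The log2 fold change of Ednrb was -0.66 (SE 0.21, 95% confidence interval -1.15 to -0.17), with an edgeR adjusted p = 0.0505, just above the threshold. Ednrb was called lower without CDH11+/+ replicate 3 (log2 fold change -0.86, adjusted p = 0.0111, edgeR) and without CDH11-/- replicate 1 (-0.77, adjusted p = 0.0377).

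Ednra, the type A receptor of smooth muscle and mesangium (ENSMUSG00000031616, chromosome 8, 77663031 to 77724464, minus strand), had 3.83, 4.37, 4.01 and 3.06 CPM in CDH11-/- replicates 1 to 4, against 4.75, 3.76 and 4.48 CPM in CDH11+/+ replicates 1 to 3. The groups overlapped, with CDH11-/- replicates 1, 2 and 3 inside the CDH11+/+ range and CDH11-/- replicate 4 below it. The log2 fold change was -0.18 (SE 0.15, 95% confidence interval -0.51 to 0.15, adjusted p = 0.389, edgeR). It was -0.09 without CDH11-/- replicate 4, -0.12 without CDH11+/+ replicate 1 and -0.27 without CDH11+/+ replicate 2, and passed the test in none of the 7 omissions. Ednra lies on the chromosome of Cdh11, 24.9 Mb away. The log2 ratio of Ednra to Ednrb counts was -1.99 ± 0.46 (SD, n = 4) in CDH11-/- and -2.45 ± 0.45 (SD, n = 3) in CDH11+/+. Their difference of 0.46 did not pass a 2-sided exact permutation test (p = 0.286, adjusted over 3 such ratios p = 0.429), in which the smallest p that 35 splits allow is 0.0286. The difference was 0.26 without CDH11-/- replicate 2, 0.30 without CDH11+/+ replicate 2 and 0.71 without CDH11+/+ replicate 3.

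Nos3, the endothelial nitric oxide synthase, was lower in CDH11-/- kidneys. Nos3 (ENSMUSG00000028978, chromosome 5, 24364810 to 24384474, plus strand) had 9.17, 6.80, 7.15 and 5.94 CPM in CDH11-/- replicates 1 to 4, against 12.3, 11.99 and 10.4 CPM in CDH11+/+ replicates 1 to 3. CDH11-/- replicate 1 was the highest of its group and still lay below all CDH11+/+ libraries. Nos3 was 1.59-fold lower (log2 fold change -0.67, SE 0.14, 95% confidence interval -0.99 to -0.35, adjusted p = 0.00714, edgeR). The call held without each of the 7 libraries in turn (adjusted p of 0.00170 to 0.0329, edgeR).

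Nos1, the neuronal synthase that the macula densa also uses, did not differ beyond its spread. Nos1 (ENSMUSG00000029361, chromosome 5, 117781032 to 117958840, plus strand) had 3.01, 2.32, 1.58 and 2.26 CPM in CDH11-/- replicates 1 to 4, against 2.37, 3.26 and 1.81 CPM in CDH11+/+ replicates 1 to 3. The ranges coincided almost entirely, and the log2 fold change was -0.11 (SE 0.25, 95% confidence interval -0.68 to 0.46, adjusted p = 0.769, edgeR). The sign of this value turned without CDH11-/- replicate 3 (0.03) or without CDH11+/+ replicate 2 (0.14), and the value was -0.48 with the deposited normalized values. Macula densa markers Pappa2, Ptgs2 and Avpr1a summed to 5.81 to 7.42 CPM in CDH11-/- and 6.81 to 14.2 CPM in CDH11+/+. All 3 had log2 fold changes below 0. Avpr1a, the largest part of the sum, was called lower (log2 fold change -0.70, adjusted p = 0.0335, edgeR), and Pappa2 and Ptgs2 did not pass. Over the omissions 1 of these markers was called lower without CDH11+/+ replicate 3, and 0 in every other omission. The log2 ratio of Nos1 to Nos3 counts was -1.68 ± 0.34 (SD, n = 4) in CDH11-/- and -2.26 ± 0.34 (SD, n = 3) in CDH11+/+, a difference of 0.58 (2-sided exact permutation p = 0.0857, adjusted over 3 ratios p = 0.257). With the deposited normalized values that difference was 0.20.

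Pde5a encodes the phosphodiesterase that hydrolyses cyclic GMP and is the target of sildenafil. Pde5a (ENSMUSG00000053965, chromosome 3, 122728947 to 122859374, plus strand) had 8.28, 8.01, 7.60 and 8.16 CPM in CDH11-/- replicates 1 to 4, against 8.04, 6.42 and 6.47 CPM in CDH11+/+ replicates 1 to 3. CDH11+/+ replicate 1 lay within the narrow CDH11-/- range. The log2 fold change was 0.20 (SE 0.10, 95% confidence interval -0.03 to 0.43, adjusted p = 0.173, edgeR). It was 0.30 without CDH11+/+ replicate 1, where the test was again not passed (adjusted p = 0.0554, edgeR).

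Both natriuretic peptide receptor genes of the set were lower in CDH11-/- kidneys. Npr1 encodes the guanylyl cyclase receptor of atrial and brain natriuretic peptides. Npr1 (ENSMUSG00000027931, chromosome 3, 90450591 to 90465866, minus strand) had 25.2, 20.3, 25.02 and 21.4 CPM in CDH11-/- replicates 1 to 4, against 31.6, 34.1 and 35.6 CPM in CDH11+/+ replicates 1 to 3. All 4 CDH11-/- libraries lay below all 3 CDH11+/+ libraries, and of the 9 genes Npr1 had the lowest adjusted p. Npr1 was 1.47-fold lower (log2 fold change -0.55, SE 0.09, 95% confidence interval -0.76 to -0.35, adjusted p = 0.00215, edgeR), and the call held without each of the 7 libraries in turn (adjusted p of 0.00278 to 0.00874, edgeR).

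Npr3 encodes the clearance receptor, which takes up natriuretic peptides and has no cyclase domain. Npr3 (ENSMUSG00000022206, chromosome 15, 11839896 to 11907287, minus strand) had 17.7, 16.8, 19.0 and 17.1 CPM in CDH11-/- replicates 1 to 4, against 28.4, 22.5 and 20.7 CPM in CDH11+/+ replicates 1 to 3. The CDH11-/- libraries lay close together, and CDH11+/+ replicate 1 was well above the other 2 of its group. Npr3 was 1.35-fold lower (log2 fold change -0.43, SE 0.11, 95% confidence interval -0.67 to -0.20, adjusted p = 0.0138, edgeR). This call also held without each library in turn (adjusted p of 0.00519 to 0.0379, edgeR). The log2 ratio of Npr3 to Npr1 counts was -0.37 ± 0.10 (SD, n = 4) in CDH11-/- and -0.51 ± 0.32 (SD, n = 3) in CDH11+/+, and the difference of 0.14 did not pass the 2-sided exact permutation test (p = 0.457, adjusted over 3 ratios p = 0.457). The difference was 0.31 without CDH11+/+ replicate 1 and 0.0018 without CDH11+/+ replicate 3, and it was 0.23 with the deposited normalized values.

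**Figure D2:**
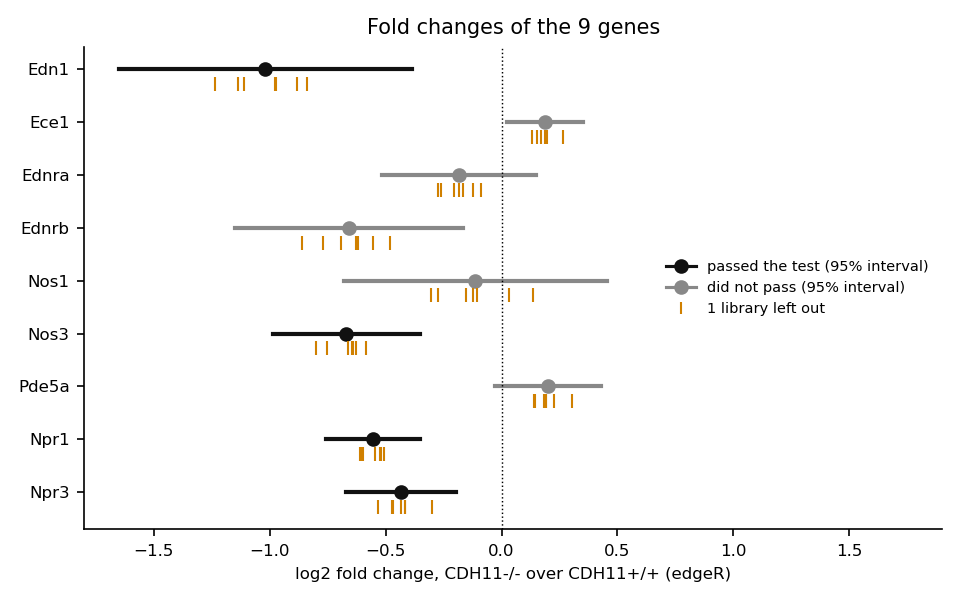
Points are log2 fold changes of CDH11-/- over CDH11+/+ for the 9 genes with their 95% confidence intervals, black where the edgeR test was passed, and short ticks are the values with 1 library left out. Ticks of Edn1, Ednra, Ednrb, Nos3, Npr1 and Npr3 all lie below 0, those of Ece1 and Pde5a all lie above 0, and those of Nos1 lie on both sides.

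Within the CDH11-/- group the order of the libraries was partly shared over the genes. CDH11-/- replicate 1 was the highest of its group for 6 of the 9 genes and the lowest for 0. CDH11-/- replicate 2 was the lowest for 5 and the highest for 1. In the CDH11+/+ group replicate 1 was the highest for 5 genes and replicate 3 for 3, among them Edn1, Npr1 and Ece1, while replicate 3 was the lowest for Ednrb, Nos1, Nos3 and Npr3. Of the 9 genes, 8 overlap other annotated genes, 11 in all, and the 7 of these in the count table had at most 0.142 CPM in any library.

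Levels between genes were compared as CPM per kb of merged exons, which is a level and not a difference. Ece1 was the most abundant at 14.4 ± 0.41 CPM per kb (SD, n = 4) in CDH11-/- and 12.6 ± 1.27 CPM per kb (SD, n = 3) in CDH11+/+. In CDH11-/- it was followed by Npr1 (4.80), Ednrb (3.58), Npr3 (1.88), Nos3 (1.76), Pde5a (0.815), Ednra (0.697), Edn1 (0.350) and Nos1 (0.206 CPM per kb). Neighbours whose CDH11-/- ranges overlapped were Npr1 and Ednrb, Npr3 and Nos3, Pde5a and Ednra, and Edn1 and Nos1. In CDH11+/+ the order after Ece1 was Npr1 (7.05), Ednrb (5.65), Nos3 (2.80), Npr3 (2.54), Ednra (0.791), Edn1 (0.712), Pde5a (0.710) and Nos1 (0.223 CPM per kb). There the ranges of Npr1 and Ednrb, of Nos3 and Npr3, and of Ednra, Edn1 and Pde5a overlapped. Edn1 was thus near Pde5a and Ednra in CDH11+/+ and below both in every CDH11-/- library.

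**Figure D3:**
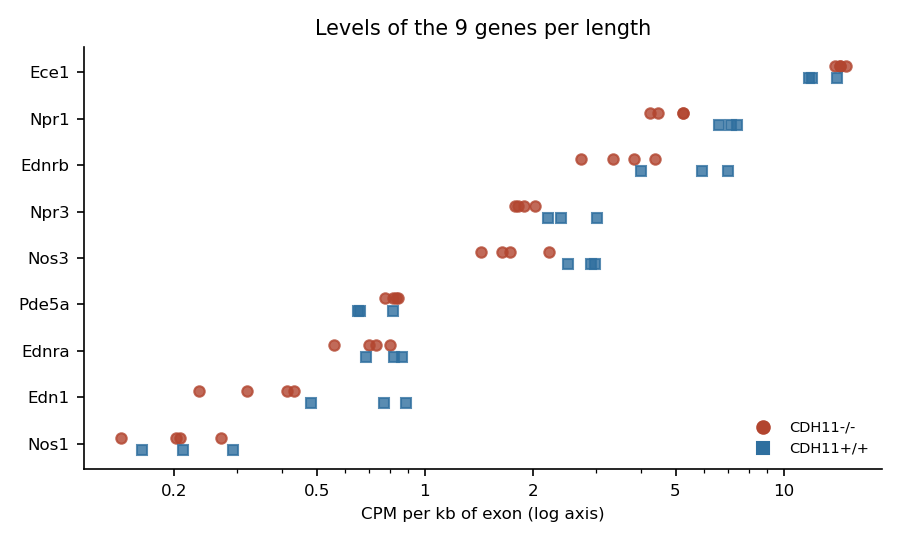
Levels of the 9 genes in CPM per kb of exon on a log axis, with circles for 4 CDH11-/- libraries and squares for 3 CDH11+/+ libraries. Genes are ordered by their CDH11-/- mean, from Ece1 at 14.4 to Nos1 at 0.206 CPM per kb.

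The rest of the pathways were read through 48 further genes, of which 47 were in the count table and 41 passed the filter on low counts. Of these 41, 11 rose and 12 fell in CDH11-/- kidneys, against 16.8% higher and 12.9% lower of all tested genes. The same shares apply to the counts of each smaller list below. Without CDH11-/- replicate 3 there were 6 higher and 7 lower, without CDH11+/+ replicate 1 there were 5 higher and 8 lower, and without CDH11+/+ replicate 2 there were 7 higher and 10 lower. At an adjusted p under 0.01, 5 were higher and 6 lower. Pde2a was not analysed here.

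Other endothelin genes did not pass the test, 0 of 3 tested. Edn3, the endothelin-3 gene, averaged 1.72 ± 0.56 CPM (SD, n = 4) in CDH11-/- and 2.48 ± 0.44 CPM (SD, n = 3) in CDH11+/+ (log2 fold change -0.53, adjusted p = 0.155, edgeR). Mme, the gene of neprilysin, which degrades endothelins and natriuretic peptides, averaged 114.9 ± 9.74 CPM (SD, n = 4) in CDH11-/- and 139.8 ± 30.9 CPM (SD, n = 3) in CDH11+/+ (log2 fold change -0.28, adjusted p = 0.161, edgeR). Mme was called lower without CDH11+/+ replicate 3 (log2 fold change -0.44, adjusted p = 0.0133, edgeR), and its value was -0.12 without CDH11+/+ replicate 1. Edn2 and Ece2 had too few counts to be tested.

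In the nitric oxide list 5 of 19 genes rose and 3 fell, against 16.8% higher and 12.9% lower of all tested genes. The median log2 fold change of the list was -0.02. Genes that recycle citrulline to arginine, the substrate of the synthases, were higher. Ass1, argininosuccinate synthase, averaged 1099 ± 61.9 CPM (SD, n = 4) in CDH11-/- and 614.7 ± 65.3 CPM (SD, n = 3) in CDH11+/+, 1.79-fold higher (adjusted p = 0.000315, edgeR). Slc7a1, the cationic amino acid transporter that imports arginine, fell to 9.51 ± 1.63 CPM (SD, n = 4) in CDH11-/-, against 19.5 ± 0.37 CPM (SD, n = 3) in CDH11+/+, 2.05-fold lower (adjusted p = 0.000462, edgeR). Both Ass1 and Asl, which cleaves argininosuccinate to arginine, are strongly expressed in the proximal tubule. Asl was 1.42-fold higher (adjusted p = 0.0309, edgeR), a call lost without CDH11-/- replicate 1, 2 or 3 or CDH11+/+ replicate 1 or 2 (adjusted p of up to 0.0826, edgeR). The Asl call was also lost in 3 alternative ways of processing that kept all libraries.

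Enzymes of tetrahydrobiopterin, the cofactor of the synthases, had 2 of 4 members higher and 0 lower. Qdpr, which regenerates the cofactor, averaged 139.2 ± 6.19 CPM (SD, n = 4) in CDH11-/- and 96.6 ± 7.48 CPM (SD, n = 3) in CDH11+/+ (1.44-fold higher, adjusted p = 0.000796, edgeR). Spr, of the last step of its synthesis, was 1.28-fold higher (adjusted p = 0.00532, edgeR). Gch1, of the first and rate-limiting step, had a log2 fold change of -0.37 and did not pass (adjusted p = 0.124, edgeR).

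The 2 hydrolases of asymmetric dimethylarginine, an endogenous inhibitor of the synthases, differed in opposite directions. Ddah1 rose to 256.3 ± 5.96 CPM (SD, n = 4) in CDH11-/-, against 167.3 ± 19.2 CPM (SD, n = 3) in CDH11+/+ (1.53-fold, adjusted p = 0.000799, edgeR). Ddah2 fell to 7.43 ± 0.66 CPM (SD, n = 4) in CDH11-/-, against 10.6 ± 0.32 CPM (SD, n = 3) in CDH11+/+ (1.42-fold, adjusted p = 0.00320, edgeR). Dynll1, a dynein light chain first described as an inhibitor of the neuronal synthase, was 1.43-fold lower (adjusted p = 0.000960, edgeR). The calls for Ass1, Slc7a1, Qdpr, Spr, Ddah1, Ddah2 and Dynll1 held without each library in turn. Among genes of the soluble guanylyl cyclase, the receptor of nitric oxide, 0 of 3 passed, and the log2 fold changes were 0.00 for Gucy1a1, 0.01 for Gucy1a2 and -0.02 for Gucy1b1. Gucy1a1 stood at 38.7 CPM in CDH11+/+ replicate 3, above all 6 other libraries, and without that library it was called higher (log2 fold change 0.42, adjusted p = 0.00508, edgeR). The inducible synthase gene Nos2 was at 0.335 to 0.685 CPM in CDH11-/- and 0.595 to 0.762 CPM in CDH11+/+ and did not pass (adjusted p = 0.382, edgeR).

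The natriuretic peptide list had 3 of 4 tested genes higher and 0 lower, against 16.8% higher and 12.9% lower of all tested genes. The list had 0 higher without CDH11-/- replicate 3 or without CDH11+/+ replicate 1. It had 1 higher without CDH11-/- replicate 4, and 2 in each of the other omissions. Npr2, the guanylyl cyclase receptor of C-type natriuretic peptide, averaged 29.0 ± 2.51 CPM (SD, n = 4) in CDH11-/- and 20.3 ± 4.75 CPM (SD, n = 3) in CDH11+/+ (1.42-fold higher, adjusted p = 0.0312, edgeR). Its direction was thus opposite to that of Npr1 and Npr3. Furin, a proprotein convertase, was 1.22-fold higher (adjusted p = 0.0199, edgeR), and Ide, an insulin- and peptide-degrading protease, 1.19-fold higher (adjusted p = 0.0470, edgeR). The Npr2 call was lost without CDH11-/- replicate 1, 3 or 4 or CDH11+/+ replicate 1 or 2 (adjusted p of up to 0.106, edgeR). The Furin call was lost without CDH11-/- replicate 3 or CDH11+/+ replicate 1 (up to 0.0868), and the Ide call without CDH11-/- replicate 2, 3 or 4 or CDH11+/+ replicate 1 or 3 (up to 0.126). The Ide call was also lost in 6 alternative ways of processing that kept all libraries. Transcripts of the peptides themselves, Nppa, Nppb and Nppc, had too few counts to be tested.

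In the list drawn up for genes that act on or respond to cyclic GMP, 9 of 15 fell and 3 rose. Among the 3 was Pde6d, a prenyl-binding protein listed for its name as a phosphodiesterase subunit. Of all tested genes, 12.9% were lower and 16.8% higher. The median log2 fold change of the 15 genes was -0.38. The lower calls numbered 4 without CDH11-/- replicate 3, 5 without CDH11+/+ replicate 1 and 6 without CDH11-/- replicate 2, and the higher calls 1 without CDH11+/+ replicate 1 or 2 and 2 without any 1 of the CDH11-/- libraries. Abcc4, a transporter that exports cyclic nucleotides, fell to 55.5 ± 6.27 CPM (SD, n = 4) in CDH11-/-, against 154.8 ± 16.7 CPM (SD, n = 3) in CDH11+/+, 2.79-fold lower (adjusted p = 4.46e-05, edgeR). Cyclic GMP-dependent kinases and their substrates had 4 of 5 genes lower and 0 higher. Without CDH11-/- replicate 3 or CDH11+/+ replicate 1 only Vasp of these was called, and 2 genes were called without CDH11-/- replicate 2 or 4. Vasp, an actin regulator that the kinase phosphorylates, was 1.37-fold lower (adjusted p = 0.00194, edgeR). Prkg1, the kinase of smooth muscle, was 1.38-fold lower (adjusted p = 0.0194, edgeR), a call lost without CDH11-/- replicate 3 or CDH11+/+ replicate 1 (adjusted p of up to 0.0773, edgeR).

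Phosphodiesterases other than Pde5a did not move one way, with 4 of 8 genes lower and 2 higher, against 12.9% and 16.8% of all tested genes. Without CDH11-/- replicate 3 the calls for Pde1c and Pde10a were lost and 2 were lower, and without CDH11+/+ replicate 1 or 2 the call for Pde9a was lost and 1 was higher. Pde3b, which is inhibited by cyclic GMP, fell to 20.5 ± 2.15 CPM (SD, n = 4) in CDH11-/-, against 45.3 ± 8.28 CPM (SD, n = 3) in CDH11+/+, 2.21-fold lower (adjusted p = 0.000453, edgeR). Its relative Pde3a was 1.37-fold lower (adjusted p = 0.0102, edgeR). Pde11a, which hydrolyses both cyclic nucleotides, rose to 1.36 ± 0.27 CPM (SD, n = 4) in CDH11-/-, against 0.470 ± 0.17 CPM (SD, n = 3) in CDH11+/+ (2.88-fold, adjusted p = 0.00505, edgeR). Pde9a, specific for cyclic GMP, was 1.83-fold higher (adjusted p = 0.0169, edgeR), a call lost without CDH11+/+ replicate 1 or 2 (adjusted p of up to 0.0638, edgeR). The calls for Abcc4, Vasp, Pde3a, Pde3b and Pde11a held without each library in turn, and 12 of the 23 calls among the further pathway genes did so in all.

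**Figure D4:**
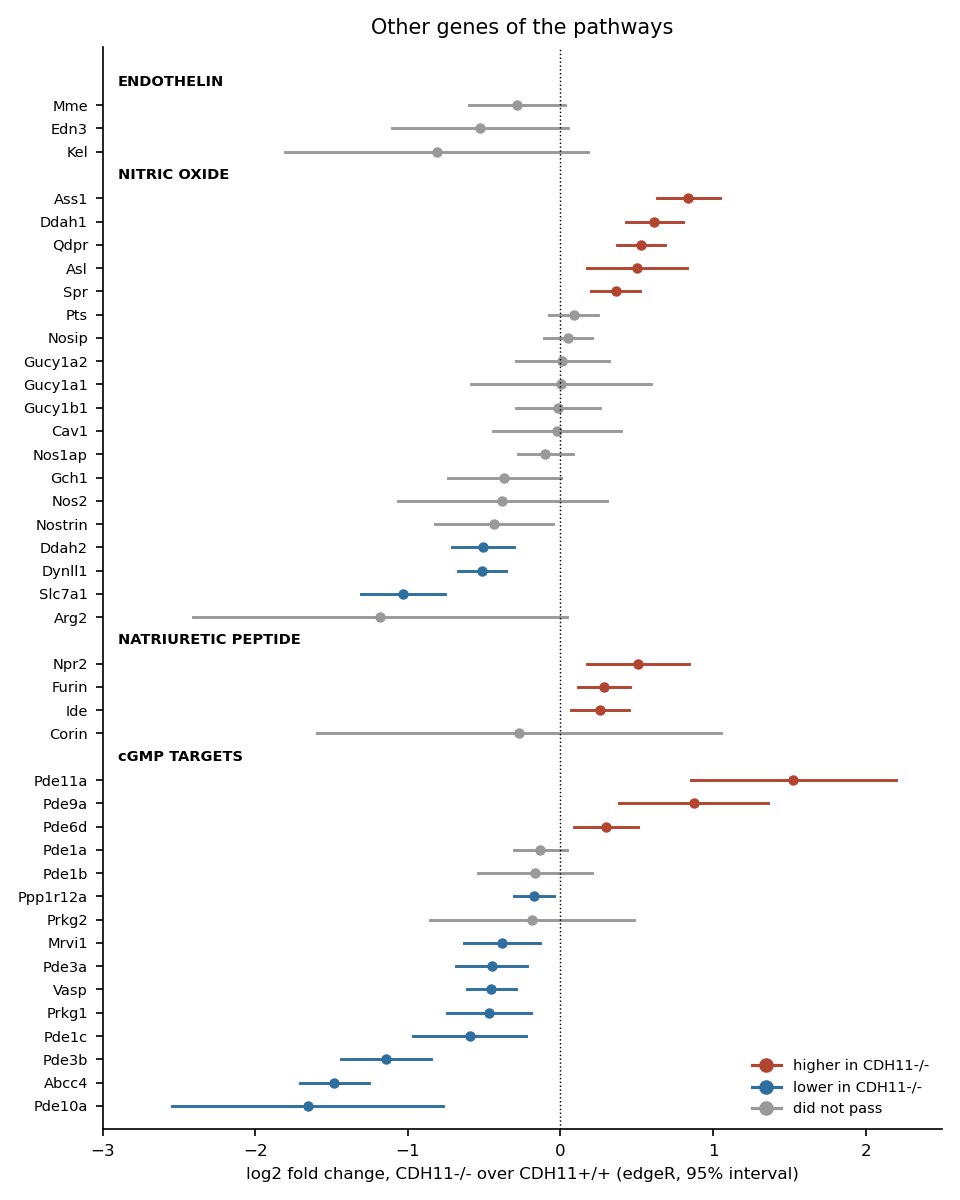
Points are log2 fold changes of CDH11-/- over CDH11+/+ with 95% confidence intervals for the 41 further pathway genes tested, by list and coloured by the edgeR call. Higher and lower genes are mixed in the nitric oxide list, and 9 of 15 cyclic GMP target genes lie below 0 and passed the test.

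Markers of the cells that carry these genes moved as well. Of all tested genes, 12.9% were called lower and 16.8% higher, which is the share to hold beside each count here. Endothelial markers, relevant to Edn1, Nos3 and Ednrb, were lower in 6 of 12 and higher in 0, with all 12 values below 0 and a median value of -0.33 on the log2 scale. The lower calls numbered 3 without CDH11+/+ replicate 1, 4 without CDH11+/+ replicate 3, and 8 without CDH11+/+ replicate 2. With a CDH11-/- library left out there were 4 (replicate 1 or 4), 5 (replicate 2) or 6 (replicate 3). They summed to 602.7 to 697.6 CPM in CDH11-/- and 756.3 to 957.9 CPM in CDH11+/+. Podocyte markers, relevant to Npr3 and Npr1, were lower in 5 of 8 and higher in 0, and summed to 307.6 to 416.5 CPM in CDH11-/- and 454.9 to 561.0 CPM in CDH11+/+. Markers of collecting duct principal cells, also relevant to Ednrb, were lower in 4 of 7 and higher in 0, with 2 lower without CDH11-/- replicate 2. They summed to 371.8 to 406.7 CPM in CDH11-/- and 440.8 to 644.7 CPM in CDH11+/+. Mesangial, smooth muscle and pericyte markers, relevant to Ednra, Pde5a and Prkg1, were lower in 3 of 10 and higher in 0 and overlapped in sum (295.3 to 381.7 CPM in CDH11-/-, 300.7 to 399.4 CPM in CDH11+/+). Proximal tubule markers, relevant to Ass1, were higher in 5 of 8 and lower in 0 and summed to 13532 to 15295 CPM in CDH11-/- and 8955 to 10074 CPM in CDH11+/+. Thick ascending limb markers were lower in 1 of 6 and higher in 1, and summed to 4105 to 4817 CPM in CDH11-/- and 4977 to 6382 CPM in CDH11+/+. Leukocyte markers were lower in 1 of 7 and higher in 1, and nerve and Schwann markers passed in 0 of 3. The part of these cell types in the gene differences was not tested.

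**Figure D5:**
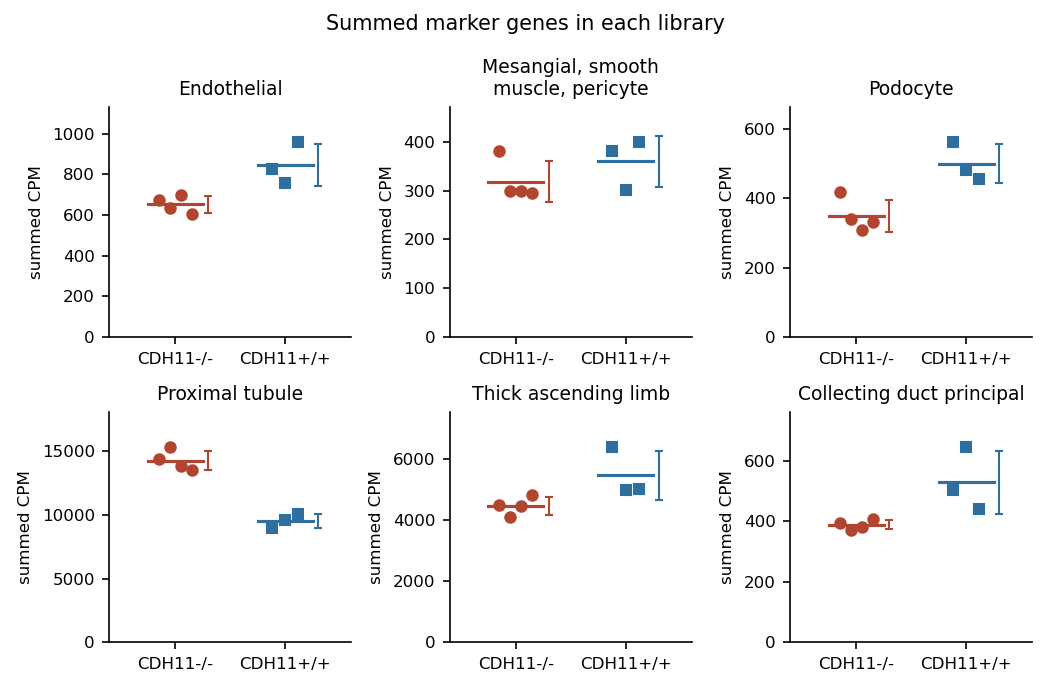
Summed CPM of the marker genes of 6 kidney cell types, on axes that start at 0, with circles for 4 CDH11-/- libraries on the left, squares for 3 CDH11+/+ libraries on the right, bars for means and offset error bars for ± SD. Endothelial, podocyte, thick ascending limb and collecting duct sums are lower in every CDH11-/- library, and proximal tubule sums are higher.

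The members were also set against the summed endothelial markers of the same library. Nos3 was 1.11% ± 0.17 (SD, n = 4) of that sum in CDH11-/- and 1.39% ± 0.27 (SD, n = 3) in CDH11+/+, and Npr1 was 3.52% ± 0.23 (SD, n = 4) in CDH11-/- and 4.02% ± 0.42 (SD, n = 3) in CDH11+/+. Edn1 was 0.116% ± 0.033 (SD, n = 4) in CDH11-/- and 0.178% ± 0.036 (SD, n = 3) in CDH11+/+. The groups overlapped for Nos3, Npr1 and Edn1 on this measure. Against summed podocyte markers Npr3 was 5.14% ± 0.79 (SD, n = 4) in CDH11-/- and 4.76% ± 0.26 (SD, n = 3) in CDH11+/+, again overlapping. Ece1 and Pde5a, which had not passed the test, were apart on the endothelial measure, at 11.7% ± 0.69 (SD, n = 4) for Ece1 in CDH11-/- and 7.93% ± 0.43 (SD, n = 3) in CDH11+/+. For Pde5a the shares were 1.23% ± 0.11 (SD, n = 4) in CDH11-/- and 0.833% ± 0.15 (SD, n = 3) in CDH11+/+. The endothelial sum was itself lower in every CDH11-/- library, so a gene of equal CPM in all libraries would be higher in CDH11-/- on this measure. Ece1 and Pde5a were also apart against the podocyte sum, which was lower in every CDH11-/- library too. How far the separation of Ece1 and Pde5a came from the sums was not tested. These ratios were chosen after the values were seen and carry no test.

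For each gene that was lower, the 3 protein-coding genes most like it over the 7 libraries were found by the root-mean-square difference of centred log2 CPM, among 10455 genes that averaged 5 CPM or more. Nos3 was closest to Efnb2, an ephrin of arterial endothelium (0.056), Thbd, the endothelial receptor thrombomodulin (0.065), and the efflux pump gene Abcb1a (0.073), and 8 genes lay within 0.1. Npr1 was closest to Arpc1b (0.033), an actin-nucleating complex subunit, Vat1 (0.052) and the netrin receptor gene Unc5b (0.059), with 58 genes within 0.1. Npr3 was closest to Mdfic (0.053), the protein kinase C gene Prkch (0.060) and Kctd12 (0.070), with 17 genes within 0.1. Edn1 was closest to Plet1 (0.15), the fatty acid hydroxylase gene Fa2h (0.16) and the actin-capping gene Capg (0.20), with 0 genes within 0.1. The measure includes the difference between the groups, so it is a description of these 7 libraries and carries no test.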

How the data were processed

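Kidney RNA of 4 CDH11-/- and 3 CDH11+/+ mice was measured by directional RNA-seq, per the labels' protocols. The deposited expected counts are the authors' estimated reads per gene, already whole numbers, so no rounding was needed. The deposited normalized values are a signal with no fixed total, equal to the counts times factors that differ between genes. What sets these factors, the annotation used for counting and the strand setting were not stated in any label or header. DRAGEN, DESeq2 and mm10 appear without versions in the submitters' processing notes. Symbols and exon lengths came from GENCODE M21 (42170 of 42256 identifiers matched), with Irag1 matched as Mrvi1 through RefSeq synonyms, and promoters from RefSeq, GRCm38.p6.

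Groups came from the labelled genotype. Replicate numbers follow accession order and pair nothing. All 21 pairs of libraries differed by more than sampling noise (median chi-square per gene of 2.69 to 12.8). CDH11+/+ replicate 3 was at 6.06 from CDH11+/+ replicate 1 and 7.47 from CDH11+/+ replicate 2. Those other CDH11+/+ libraries were at 2.98 from each other, and pairs within CDH11-/- were at 2.69 to 4.33. Genes were filtered with filterByExpr and scaled by TMM, and all were tested with edgeR's quasi-likelihood test (edgeR 4.0.16, limma 3.58.1, R 4.3.3), with calls at a p under 0.05 after Benjamini-Hochberg adjustment. The SE is the log2 fold change divided by the square root of the F statistic, and 95% intervals use edgeR's degrees of freedom. The biological coefficient of variation was 15.2%. Counts of 4 against 3 libraries were simulated over 17775 genes. On the log2 scale, 67 genes were changed by 0.5, 67 by 1 and 66 by 2. The test called 14.9% of those changed by 0.5 and 100% of those changed by 1, and 7.74% of calls were unchanged genes. Calls reached 29.7% in the measured libraries, a far larger share than was changed in the simulation. Because the adjusted threshold depends on that share, the simulated percentages do not give the power of the tests reported here. Ratios were tested with exact permutation tests in Python 3.11.15.

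Alternatives were DESeq2 1.42.0, limma-voom with quality weights, other scalings, filters and thresholds, no robust estimation, limma-trend on the deposited normalized values (log2, pseudocount 1 or 0.1), and the omission of each library. The members and lists were chosen with earlier results of these data known. Named genes were the 9 members, up to 4 called genes of each pathway list, lowest adjusted p first (with none called, the 2 of highest CPM), Cdh11 and the 3 genes most like each called member. Other pathway genes were named after their values were seen.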

Additional observations from a re-analysis of the deposited data

Results flagged for a closer look

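Among 53 groups of 4 CDH11-/- values tested (the 9 genes, 3 ratios and 41 further pathway genes), 3 had a library far from the others by Dixon's test, and chance flags about 1 in 20. None of the 9 genes was among them. Pts, of tetrahydrobiopterin synthesis, stood at 32.1 CPM in CDH11-/- replicate 2, above the other 3 CDH11-/- libraries. Pde6d, a prenyl-binding protein named as a phosphodiesterase subunit, stood at 10.2 CPM in the same library. Pde10a, a dual phosphodiesterase, stood at 7.51 CPM in CDH11-/- replicate 1, and its call as lower (log2 fold change -1.66, adjusted p = 0.0163, edgeR) was lost without CDH11-/- replicate 3 (adjusted p = 0.0523).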

How the results depend on the processing

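Nos3, Npr1 and Npr3 stayed lower and past the threshold in each of 17 alternatives. Edn1 was called in 13 of 17 and lost in 4, each with 1 library left out (log2 fold change -1.24 to -0.84 over the 7 omissions). Ednrb, not called at first, was called lower with DESeq2 (-0.67), limma-voom (-0.77), relative log expression (-0.67) or upper-quartile scaling (-0.67), mitochondrial genes left out (-0.67), a mean of at least 1 CPM (-0.67) or no robust estimation (-0.66), and in 2 omissions (range -0.86 to -0.48). Ece1 was called higher with limma-voom (0.23) and in 1 omission (0.13 to 0.27), which gave 1 member higher in place of 0. Nos1 ranged from -0.31 to 0.14 over the omissions, and the cause of these changes was not tested. Members called lower numbered 3 to 5 over the omissions. At an adjusted p under 0.01, 2784 genes, 2 members (lower), and 5 higher and 6 lower further pathway genes were called, fewer by construction. Ratio differences ranged over the omissions from 0.26 to 0.71 (Ednra to Ednrb), 0.0018 to 0.31 (Npr3 to Npr1) and 0.45 to 0.77 (Nos1 to Nos3). Omissions gave 5 to 11 higher and 7 to 13 lower further pathway genes. With all libraries kept, other processing lost the call of Ide in 6 settings and those of Asl and Ppp1r12a in 3 each. Mrvi1 and Pde1c were lost in 2 each and Pde6d in 1. No paired analysis was possible because the labels number no replicates. Edn1, at 36 to 164 counts, is the member most limited by depth.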

Other observations

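The factors that turn the deposited counts into the deposited normalized values, divided by the median factor of each library, were uneven for Nos1 and Ece1. For Nos1 they ran from 0.641 (CDH11-/- replicate 2) to 1.29 (CDH11+/+ replicate 3), and for Ece1 from 0.752 (CDH11-/- replicate 4) to 1.26 (CDH11+/+ replicate 3). For Ednra, Ednrb, Nos3, Pde5a, Npr1 and Npr3 they lay between 0.934 and 1.10. Factors were read only from values of at least 100 counts, which for Edn1 left CDH11+/+ replicates 1 and 3 (both 0.99).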
